A study of Mus musculus with 43 samples.

Results

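The 61 genes described here had RNA that was much higher with TGFB1 than with vehicle in irradiated mouse intestinal organoids at day 7 (D7). At day 11 (D11) it was at most slightly higher. They were chosen from 23951 genes by the measured values themselves. The measure was the difference of log2(mean FPKM + 1) between the TGFB1 and vehicle libraries, where FPKM is fragments normalized for transcript length and library size. A gene was taken when this difference was at least 1.5 in the irradiated D7 libraries and below 0.3 in the D11 libraries, and when the D7 TGFB1 libraries averaged at least 5 FPKM. Symbols of microRNAs, small nucleolar RNAs and numbered predicted genes were dropped. Without the D11 condition, 355 genes met the D7 conditions, and 3.72% of the 11456 genes averaging at least 1 FPKM over the irradiated libraries had a D7 difference of 1.5 or more. The irradiated D7 and D11 values of the 61 genes are therefore a description and carry no test.

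The bulk libraries came from primary intestinal organoids of wild-type C57BL/6 mice, in 6 groups of 3. Irradiated organoids received 4 Gy on day 4, and TGFB1 at 2 ng/mL or vehicle was given on day 6 for 24 h. They were collected at D7 or at D11, so the D11 libraries follow days of culture after the TGFB1 was given. Non-irradiated organoids were treated in the same way and collected at D7. A separate single-cell series used organoids that had received 4 Gy on day 4, taken at day 8 (D8) with TGFB1 at 1 ng/mL for 6, 15 or 24 h or without it (0 h), in 1 library each. Another single-cell set held crypt cells from the proximal small intestine of Mki67tm1.1Cle/J mice, which carry a red fluorescent reporter fused to Ki67. Live reporter-positive cells were sorted from 1 non-irradiated library, made from littermates, and from 2 libraries taken 56 h after 12 Gy to the whole body. The sources used here name no ages, and the labels do not say whether bulk replicates were separate cultures, so p-values measure the spread between these libraries, which may be technical.

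The intestinal epithelium is renewed from stem cells in the crypts, and after irradiation surviving crypt cells can pass through a regenerative state with fetal-like genes before the normal lineages return. TGFB1 is a secreted ligand that signals through type II and type I receptor kinases to SMAD2 and SMAD3, which enter the nucleus with SMAD4. It is known for holding back epithelial proliferation and for inducing matrix and cytoskeletal genes, and it can induce its own transcript.

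Bulk libraries had 11040 to 11361 genes above 1 FPKM. FPKM hides the read depth, so no counting interval is given for bulk values, and the 3 conditions were deposited as separate tables, so levels set side by side across tables may differ by scaling. Single-cell libraries kept 2218 to 4283 organoid cells and 699 to 1846 crypt cells, with 12344800 to 32430900 unique molecular identifiers (UMIs) each. No pair of libraries shared more than 1 cell barcode. Epithelial markers summed to between 6556 and 18920 FPKM per bulk library. All 8 endothelial markers had group means below 1 FPKM, and 11 to 13 of 14 immune markers and 10 or 11 of 12 mesenchymal markers did so too. Summed immune markers were nevertheless higher with TGFB1 at D7 (13.8 to 15.2 against 6.15 to 7.85 FPKM irradiated, and 22.3 to 24.4 against 9.88 to 11.9 FPKM non-irradiated), mainly through Cd68 and Lyz2, and also at D11 (12.9 to 15.4 against 7.22 to 11.0 FPKM). Summed mesenchymal markers were higher with TGFB1 in irradiated D7 organoids (7.36 to 10.2 against 4.51 to 5.66 FPKM) and lower at D11 (2.89 to 4.29 against 5.49 to 7.21 FPKM). The part of these markers in the results was not tested. In bulk RNA, fewer cells of a type and less RNA per cell cannot be told apart.

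The values of 60 of the 61 genes in the 18 bulk libraries are shown gene by gene in the heat map. The TGFB1 libraries of irradiated D7 organoids were the warm block for nearly every gene. In all 61 genes they lay above every vehicle library of irradiated D7 organoids (36.9% of all genes). The rule favours this, since it chose on the means. Non-irradiated TGFB1 libraries were a weaker warm block for most.

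**Figure D1:**
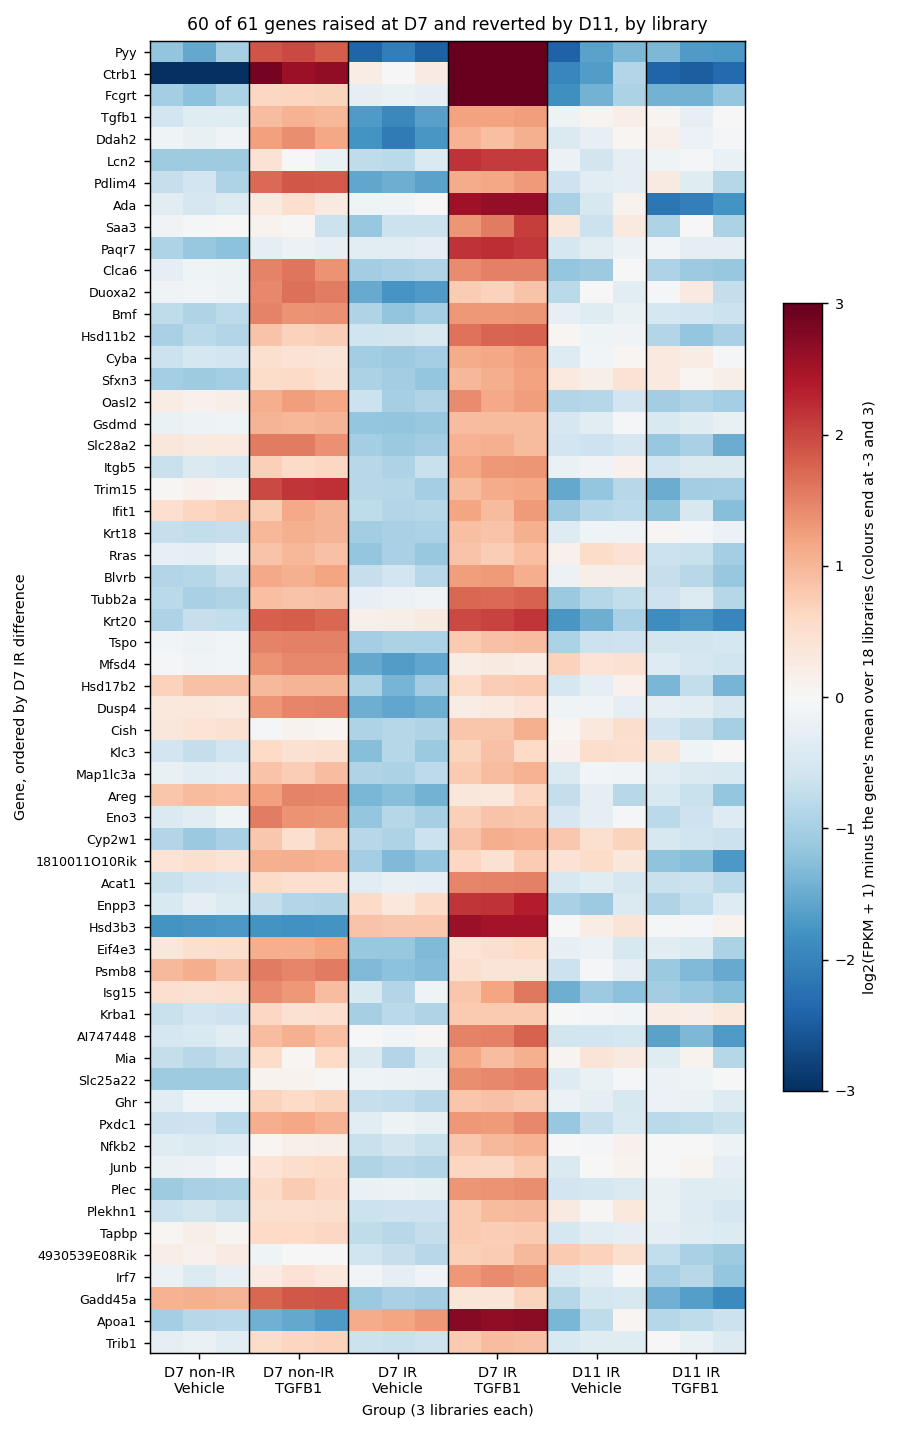
Heat map of log2(FPKM + 1) minus each gene's mean over 18 libraries, with 60 of the 61 genes in rows ordered by the D7 irradiated difference and 3 libraries per group in columns. Colours end at -3 and 3. The 3 irradiated D7 TGFB1 libraries stand above the irradiated D7 vehicle libraries in each of them, which the rule favours. Apoa1, Enpp3, Cish and 4930539E08Rik are lower with TGFB1 in non-irradiated organoids.

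Secreted products of other gut and pancreatic cell types led the order. Pyy encodes peptide YY, a hormone of enteroendocrine cells of the distal gut. In irradiated D7 organoids it was at 1.11, 1.67 and 1.04 FPKM with vehicle and at 329, 325 and 450 FPKM with TGFB1. The ratio of means was 289, the largest among the 61 genes. At D11 it was at 1.08, 2.68 and 3.37 FPKM with vehicle and at 3.40, 2.43 and 2.41 FPKM with TGFB1, so the groups overlapped. No other hormone or neuropeptide gene of 22 in its family averaging at least 1 FPKM over the 12 irradiated libraries had a D7 difference of 1.5 or more. Ctrb1 encodes chymotrypsinogen, a digestive protease best known from the exocrine pancreas. It was at 73.1, 63.7 and 74.6 FPKM with vehicle and at 2728, 2514 and 2593 FPKM with TGFB1 in irradiated D7 organoids. At D11 it was at 15.5, 19.0 and 33.6 FPKM with vehicle and at 11.1, 10.6 and 11.7 FPKM with TGFB1, with every TGFB1 library below every vehicle library.

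Enzymes of mitochondrial, steroid and haem metabolism made up the next group. Acat1, the mitochondrial thiolase of ketone and isoleucine metabolism, was at 40.6 to 43.3 FPKM with vehicle and at 142 to 146 FPKM with TGFB1 at D7. The steroid enzyme genes behaved alike at D7 and differed at D11. Hsd11b2, which inactivates glucocorticoids, was at 3.77 to 4.20 and 21.2 to 23.7 FPKM at D7, and its D11 difference was -0.95. Hsd17b2, which oxidises oestradiol and testosterone, had a D7 difference of 1.82 and a D11 difference of -0.93. Cyp2w1, a cytochrome P450, had 1.79 and -1.23, and Hsd3b3, one of several near-identical 3 beta-hydroxysteroid dehydrogenase genes whose reads may be split among copies, had 1.71 and -0.20. Of 127 genes of the cytochrome, dehydrogenase and glutathione enzyme family averaging at least 1 FPKM, 7 had a D7 difference of 1.5 or more, and these 4 were among them. Paqr7, a membrane progestin receptor, had a D7 difference of 2.47. Tspo, an outer mitochondrial membrane protein that binds cholesterol and porphyrins, and Blvrb, biliverdin reductase B, had differences of 1.83 and 1.90.

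Ligands, receptors and their intracellular targets formed another group. Tgfb1 itself was at 3.58, 2.90 and 3.81 FPKM with vehicle and at 33.4, 33.0 and 34.2 FPKM with TGFB1 in irradiated D7 organoids. Its D11 levels were 12.3, 14.7 and 15.9 FPKM with vehicle and 14.6, 11.5 and 13.9 FPKM with TGFB1. The D11 groups overlapped, and both lay above the D7 vehicle level. Areg, an EGF receptor ligand, was at 45.8 to 51.1 FPKM with vehicle and at 156 to 195 FPKM with TGFB1 at D7. Ghr, the growth hormone receptor, and Cish, a suppressor of cytokine signalling that STAT5 induces, had D7 differences of 1.58 and 1.80. Itgb5, the beta chain of an integrin that can activate latent TGFB, had 2.07, and Rras, a small GTPase that acts on integrins, had 1.92. Among nuclear and feedback genes, Junb, an AP-1 subunit, was at 91.8 to 96.5 FPKM with vehicle and at 265 to 299 FPKM with TGFB1. Nfkb2, an NF-kB subunit, had a D7 difference of 1.57, and Dusp4, a phosphatase of MAP kinases, had 1.81. Trib1, a pseudokinase scaffold for protein degradation, had 1.504, the smallest of the 61. Gadd45a, a growth arrest and stress response gene, was at 15.5, 17.2 and 16.4 FPKM with vehicle and at 44.8, 44.8 and 55.6 FPKM with TGFB1 at D7, and at D11 every TGFB1 library (8.46 to 12.2 FPKM) lay below every vehicle library (18.6 to 24.4 FPKM). Bmf, a BH3-only gene that promotes apoptosis, had a D7 difference of 2.33 and a D11 difference of -0.32.

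Interferon-stimulated and antigen presentation genes were present as a group of 6. Ifit1 and Isg15 are classic targets of type I interferon, Oasl2 belongs to the oligoadenylate synthetase family, Irf7 is a transcription factor that amplifies interferon production, Psmb8 is an immunoproteasome subunit and Tapbp is tapasin, which loads peptides on MHC class I. With TGFB1 at D7, Tapbp was at 63.7 to 66.6 FPKM and Irf7 at 36.4 to 39.5 FPKM, and the others were lower. Isg15 was at 1.85, 1.13 and 2.58 FPKM with vehicle and at 5.99, 7.91 and 10.8 FPKM with TGFB1. Ifit1 was at 0.974, 0.827 and 0.848 FPKM with vehicle and at 6.60, 5.43 and 7.09 FPKM with TGFB1. The D7 differences of Oasl2, Psmb8, Tapbp and Irf7 were 2.12, 1.70, 1.53 and 1.51. In the family list of 108 such genes, which holds Oasl2, Ifit1, Psmb8 and Isg15, 42 had a mean of at least 1 FPKM, 4 had a D7 difference of 1.5 or more, and 0 of these 4 had a D11 difference of 0.3 or more, which the rule fixed, since all 4 are among the 61 genes. In the regenerative marker list, 15 of 21 such genes were at 1.5 or more at D7 and 14 of these at 0.3 or more at D11, the exception being Krt18. Both lists were drawn up with results of these data known, and the counts are a description.

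Promoter windows of interferon genes are shown because 2 of the 6 held the letters of the interferon-stimulated response element. Each window runs from 250 bases before to 50 bases after the annotated start (RefSeq, GRCm38.p6), 5′ to 3′ on the gene's strand. The element was searched as 2 copies of GAAA with NN between them, on both strands, and overlapping matches merge into 1 run of capitals. Capitals mark it in Ifit1 (chr19:34640639-34640938, plus strand) and Isg15 (chr4:156200769-156201068, minus strand). In Krt20 (chr11:99438104-99438403, minus strand), capitals mark the TEAD letters GGAATG and the TATA box letters TATAAA, and in Duoxa2 (chr2:122298650-122298949, plus strand) the AP-1 letters TGANTCA and the TATA box. N stands for any base, and the AP-1 stretch marked in Duoxa2 reads TGAATCA.
Ifit1: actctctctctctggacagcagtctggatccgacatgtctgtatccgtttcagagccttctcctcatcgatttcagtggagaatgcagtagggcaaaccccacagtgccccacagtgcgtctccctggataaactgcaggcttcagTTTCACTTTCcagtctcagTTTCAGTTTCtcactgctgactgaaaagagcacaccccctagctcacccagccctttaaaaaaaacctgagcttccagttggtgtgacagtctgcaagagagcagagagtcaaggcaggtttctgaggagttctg
Isg15: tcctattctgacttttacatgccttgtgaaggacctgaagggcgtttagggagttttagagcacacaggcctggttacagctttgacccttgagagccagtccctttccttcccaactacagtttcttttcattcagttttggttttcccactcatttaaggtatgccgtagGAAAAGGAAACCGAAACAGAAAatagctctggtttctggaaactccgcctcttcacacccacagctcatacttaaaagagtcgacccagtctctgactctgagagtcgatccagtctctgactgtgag
Krt20: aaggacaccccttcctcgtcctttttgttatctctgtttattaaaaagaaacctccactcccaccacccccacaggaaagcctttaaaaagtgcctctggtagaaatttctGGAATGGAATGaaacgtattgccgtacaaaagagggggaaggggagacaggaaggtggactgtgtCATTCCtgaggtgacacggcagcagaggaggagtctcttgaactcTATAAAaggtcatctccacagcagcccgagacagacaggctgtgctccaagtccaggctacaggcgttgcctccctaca
Duoxa2: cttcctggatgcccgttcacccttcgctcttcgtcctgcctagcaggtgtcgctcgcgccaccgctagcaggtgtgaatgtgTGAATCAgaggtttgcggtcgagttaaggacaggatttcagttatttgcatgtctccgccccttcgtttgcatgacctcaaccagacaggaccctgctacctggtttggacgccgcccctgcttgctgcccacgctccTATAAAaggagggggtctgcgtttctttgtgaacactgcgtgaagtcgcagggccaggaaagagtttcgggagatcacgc

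Of the 61 genes, 48 had a promoter window in the table, 1 per gene. The response element letters were in 3 of these 48 (6.25%: Saa3, Ifit1 and Isg15) and in 3.49% of all 27025 windows. The TEAD letters were in 10 (20.8% against 14.6%), the TATA box in 11 (22.9% against 14.2%), and the AP-1 letters in 2 (4.17% against 7.93%), which were Duoxa2 and Trim15. The SMAD box CAGAC was in 24 (50.0% against 49.7%). The E-box CAGGTG, which ZEB and SNAI factors bind, was in 14 (29.2% against 20.03%). The CDX letters TTTATNG, which can overlap the TATA box on the other strand, were in 11 (22.9% against 11.3%). These shares are a description, and a match is not a bound site.

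Genes of epithelial defence and immunity were the fifth group. Fcgrt encodes the neonatal Fc receptor, which carries IgG across epithelia. It was at 17.5, 18.7 and 17.7 FPKM with vehicle and at 221, 233 and 254 FPKM with TGFB1 in irradiated D7 organoids, and its D11 groups overlapped at 5.29 to 10.7 and 7.39 to 8.98 FPKM. Lcn2, which binds bacterial siderophores, was at 0.200 to 0.552 and 7.96 to 8.48 FPKM, and Saa3, an acute phase protein, was at 0.244 to 0.745 and 5.79 to 10.5 FPKM at D7. Ada, adenosine deaminase, had the reverse order at D11. It was at 46.0, 46.2 and 50.0 FPKM with vehicle and at 301, 318 and 321 FPKM with TGFB1 at D7, and at 25.1, 35.7 and 54.4 FPKM with vehicle and 10.5, 11.5 and 13.8 FPKM with TGFB1 at D11. Duoxa2 and Cyba encode partners of epithelial and phagocyte NADPH oxidases, and had D7 differences of 2.42 and 2.23. Gsdmd, the pore-forming gasdermin D, was at 40.7 to 42.1 FPKM with vehicle and at 177 to 181 FPKM with TGFB1 at D7. Enpp3, an ectoenzyme that hydrolyses extracellular ATP, had a D7 difference of 1.72. The chloride channel accessory genes Clca6 and AI747448, close copies of each other whose reads may be split, had 2.46 and 1.61, and Trim15, of a family of ubiquitin ligases, had 1.98.

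Cytoskeletal genes included the most abundant transcript after that of Apoa1. Krt18, a simple epithelial keratin, was at 685, 714 and 730 FPKM with vehicle and at 2616, 2536 and 2958 FPKM with TGFB1 in irradiated D7 organoids. At D11 it was at 1072, 1292 and 1317 FPKM with vehicle and at 1434, 1382 and 1258 FPKM with TGFB1. Krt20, a keratin of differentiated villus cells, was at 143 to 155 and 509 to 574 FPKM at D7, and at D11 both groups were lower, at 37.9 to 65.0 and 32.5 to 37.8 FPKM. On the log2(mean + 1) scale, the D11 minus D7 difference of Krt18 was -0.99 with TGFB1 and 0.79 with vehicle, whereas both Krt20 levels were lower than at D7. Plec, a linker of intermediate filaments, Tubb2a, a beta-tubulin, and Klc3, a kinesin light chain, had D7 differences of 1.56, 1.90 and 1.80. Pdlim4, which binds actin stress fibres, had 2.72, and Map1lc3a, an autophagosome protein, had 1.80.

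Apoa1, the main protein of high-density lipoprotein and a product of enterocytes, had the highest level of the 61. It was at 2158, 2253 and 2438 FPKM with vehicle and at 6653, 6277 and 6516 FPKM with TGFB1 in irradiated D7 organoids, and at 385, 588 and 1045 FPKM with vehicle and 554, 586 and 633 FPKM with TGFB1 at D11. Vehicle replicate 3 was the highest D11 library for Apoa1, Ctrb1, Fcgrt and Ada. The remaining genes included a transporter of nucleosides (Slc28a2, 2.08 at D7) and mitochondrial transporters of glutamate (Slc25a22, 1.60) and serine (Sfxn3, 2.15). They also included Ddah2, a dimethylarginine hydrolase homologue (2.89), Eno3, a muscle-type enolase (1.80), and Eif4e3, a cap-binding protein (1.70). Mfsd4, Mia, Pxdc1, Plekhn1, Krba1, 1810011O10Rik and 4930539E08Rik had D7 differences of 1.53 to 1.83.

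**Figure D2:**
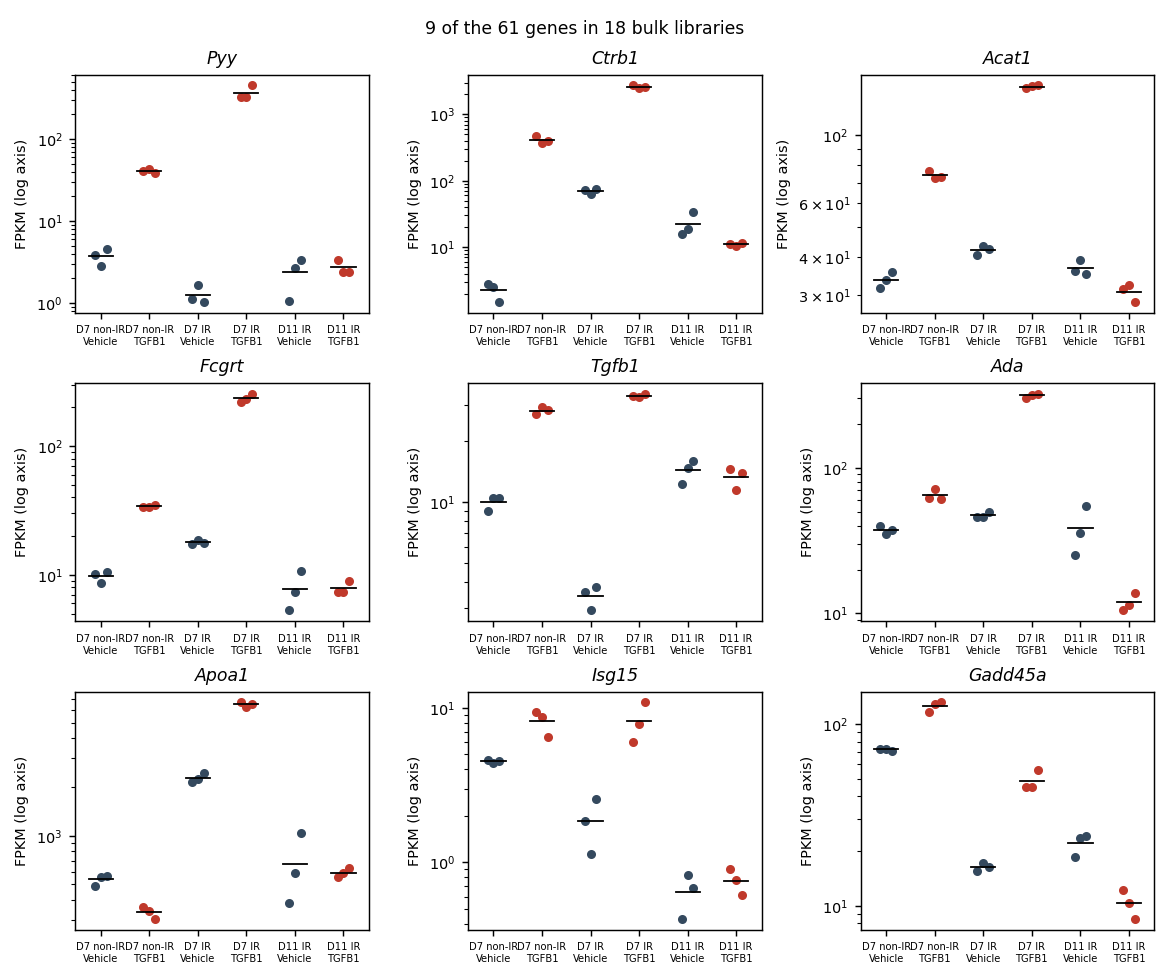
FPKM on a log axis of 9 genes in 18 bulk libraries, vehicle in dark blue and TGFB1 in red, with black lines at the mean of 3 libraries. The D11 groups overlap for Pyy, Fcgrt, Tgfb1, Apoa1 and Isg15, and for Ctrb1, Acat1, Ada and Gadd45a every D11 TGFB1 library lies below every D11 vehicle library.

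The thresholds cut through a continuous range. At the D7 limit, Trib1 (1.50434) and Apoa1 (1.50525) lay just inside, and Nos2 (1.49966), Rapgefl1 (1.49771) and S100g (1.48) just outside. At the D11 limit, Cyba (0.292), Tubb2a (0.284) and Krba1 (0.283) lay inside, and Cst6 (0.318), Plet1 (0.322) and Ttc22 (0.328) outside, as did Krt8, the partner keratin of Krt18 (0.343). At the level limit, Krba1 (5.92 FPKM) lay inside and Rapgef4 (4.83 FPKM) outside.

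The loss of the difference by D11 went mostly with a lower level in the TGFB1 libraries. The rule used these contrasts, so the counts are read only as a description. For 43 of the 61 genes the TGFB1 level was at least 1 log2 unit lower at D11 than at D7 while the vehicle level was less than 1 unit higher, as it was for 8.15% of 11456 genes averaging at least 1 FPKM. For 9 genes both moved by that much, against 0.393% of all genes. They included Tgfb1, Ddah2, Pdlim4, Rras, Cish, Cyp2w1, 1810011O10Rik and 4930539E08Rik. In 5 genes only the vehicle level was at least 1 unit higher at D11 (3.12% of all genes), namely Duoxa2, Sfxn3, Mfsd4, Dusp4 and Klc3, and in 4 neither passed 1 unit (88.3% of all genes), namely Krt18, Krba1, Nfkb2 and Junb. The vehicle level itself differed widely between days, with a lowest difference of -1.76 for Apoa1 and a median of 0.67.

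At D11 every TGFB1 library was below every vehicle library in 23 of the 61 genes (37.7%), a share near the 34.0% of all genes. Every one was above in 3 (35.8% of all genes), with D11 differences of 0.187 for Tspo, 0.192 for Plec and 0.283 for Krba1. The groups overlapped in 35. The D11 difference was -1 or less in 10 genes, against 8.28% of all genes. They included, in order, 1810011O10Rik (-1.83), Ada (-1.61), 4930539E08Rik (-1.58), Cyp2w1 (-1.23), Rras (-1.15), Cish (-1.06), Gadd45a (-1.03), Mfsd4 (-1.02) and Psmb8 (-1.02). They came from different roles, with enzymes, signalling genes and an immunoproteasome subunit among them.

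Whether TGFB1 moved these genes without irradiation is a comparison that the rule did not use. In non-irradiated D7 organoids most of the genes were higher with TGFB1 too, while 4 were lower. Of the 61 genes, 59 passed the filter of 1 FPKM on the mean of the 6 libraries, 2 of them, Pdlim4 being one, with a vehicle mean under that limit, so that only their TGFB1 libraries carried them past it. Of the 59, 54 were called higher and 4 lower, and 1 was not called (limma on log2(FPKM + 1), Benjamini-Hochberg adjusted p under 0.05). Over the 11330 genes tested, 33.3% were called higher and 34.9% lower. Without those 2 genes, 52 of 57 were called higher. At least 2-fold higher were 35 of these 57, against 5.52% of all genes tested. The median difference of log2(mean + 1) over the 61 genes was 1.15, and over the 11456 genes above it was -0.02.

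Ctrb1 rose the most without irradiation, from 2.79, 2.51 and 1.49 FPKM to 468, 376 and 399 FPKM. The log2 fold change on the log2(FPKM + 1) scale was 7.01 ± 0.19 (SE, limma adjusted p = 3.4e-06). The vehicle libraries were near the lower end of the scale and the TGFB1 libraries were far apart from them. Pyy rose from 3.89, 2.88 and 4.62 FPKM to 40.3, 42.9 and 38.3 FPKM, by 3.13 ± 0.12 (SE, adjusted p = 1.3e-07). Krt20 rose by 2.56 ± 0.06, Bmf by 2.22 ± 0.06 and Trim15 by 2.02 ± 0.06 (SE). Pdlim4, with a vehicle mean of 0.958 FPKM under the filter, had a difference of 2.53 ± 0.09 (SE). Blvrb, Pxdc1 and Tubb2a were also among the 10 largest, at 1.93, 1.79 and 1.77. Tgfb1 rose from 8.97, 10.4 and 10.4 FPKM to 27.1, 29.4 and 28.3 FPKM, by 1.42 ± 0.06 (SE, adjusted p = 6.3e-09), so the transcript of the ligand was higher after its protein was added in irradiated and non-irradiated organoids alike.

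The genes called lower without irradiation were Apoa1, Enpp3, Cish and 4930539E08Rik. Apoa1 fell from 492, 556 and 567 FPKM to 363, 345 and 306 FPKM, a log2 fold change of -0.67 ± 0.07 (SE, limma adjusted p = 5.7e-05). Enpp3 fell from 3.23 to 3.76 FPKM with vehicle to 2.12 to 2.55 FPKM with TGFB1 (-0.44 ± 0.08, SE, adjusted p = 0.0005), and Cish from 7.58 to 8.19 to 5.55 to 6.31 FPKM (-0.35 ± 0.06, SE, adjusted p = 0.00033). The log2 fold change of 4930539E08Rik was -0.23 ± 0.06 (SE, adjusted p = 0.0056). None of the 4 fell by 2-fold, and in each every TGFB1 library was below every vehicle library (36.7% of all genes). Saa3 was not called (-0.12 ± 0.17, SE, adjusted p = 0.56), at 1.54 to 1.76 FPKM with vehicle and 0.754 to 1.92 FPKM with TGFB1. Lcn2 and Hsd3b3 did not pass the filter. Lcn2 was listed at 0 in all 3 vehicle libraries and at 1.85, 1.12 and 0.831 FPKM with TGFB1, and Hsd3b3 was at or below 0.0788 FPKM in all 6 libraries.

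The interferon genes were higher without irradiation as well, by less than 1 unit on the log2(FPKM + 1) scale in each of the 6. Oasl2, whose ratio of mean FPKM was 2.19, had a log2 fold change of 0.99, Isg15 of 0.72, Irf7 of 0.60, Psmb8 of 0.55, Tapbp of 0.50 and Ifit1 of 0.35 (limma adjusted p of 0.0087 for Ifit1 and smaller for the others). The Ifit1 call was lost in a limma fit of all 18 libraries, where the adjusted p was 0.074. Of 50 genes of their family tested, 24 were called higher and 14 lower, with a median of 0.10. The vehicle level of Psmb8 was 13.6 to 15.9 FPKM in non-irradiated and 2.18 to 2.42 FPKM in irradiated D7 organoids. In the enterocyte list, 4 of 20 genes were called higher and 16 lower, and in the proliferation list 1 of 19 was higher and 16 lower. Of 21 tested genes of a TGFB response list, 18 were called higher and 2 lower, and of 20 regenerative markers all 20 were called higher, with medians of 0.64 and 2.03 against -0.02 over all genes tested.

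**Figure D3:**
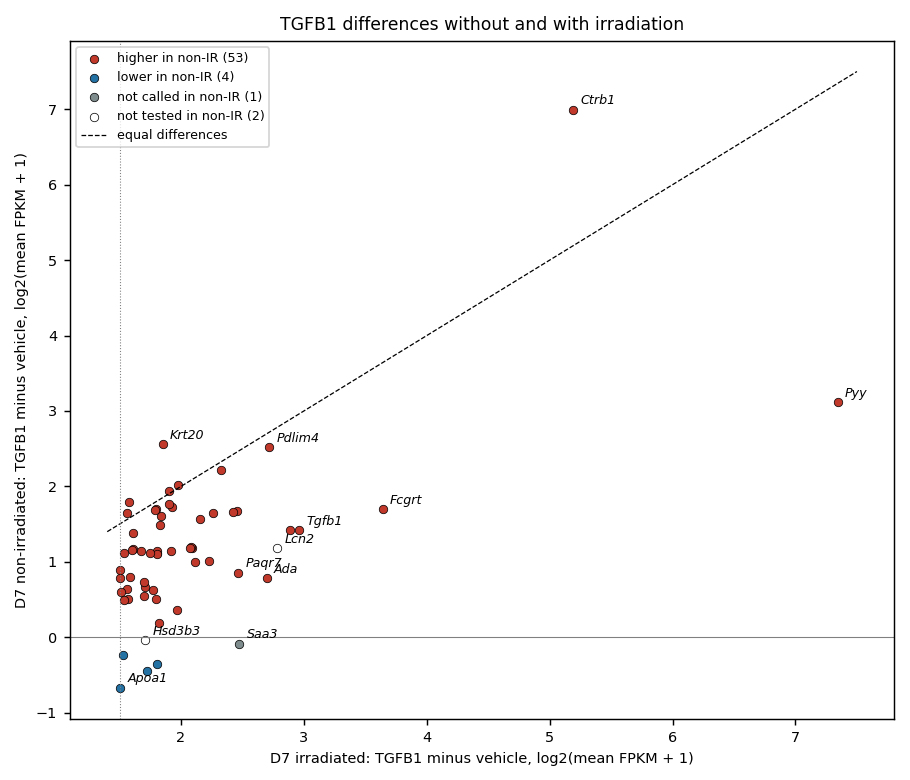
Difference of log2(mean FPKM + 1), TGFB1 minus vehicle, in irradiated D7 organoids (x axis, used by the rule, dotted line at 1.5) against non-irradiated D7 organoids (y axis), 1 point per gene for 60 of the 61 genes, coloured by the limma call in non-irradiated organoids. Most points lie below the dashed line of equal differences, which the rule favours, since it chose on the x axis, and Ctrb1 and Krt20 are among those above it.

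Levels by irradiation at D7 are given as a description, since the rule used the irradiated libraries. The vehicle level was lower by at least 1 log2 unit in irradiated than in non-irradiated organoids for 16 of the 61 genes (6.90% of all genes) and higher by that much for 4 (8.08% of all genes). The 4 included Ctrb1 (4.45), Hsd3b3 (2.58) and Apoa1 (2.08). The lowest were Psmb8 (-2.26), Areg (-2.25) and Gadd45a (-2.08). With TGFB1, 13 genes were higher by at least 1 unit in irradiated organoids (10.0% of all genes) and 5 lower (8.40% of all genes), and Hsd3b3 (4.32), Apoa1 (4.26), Pyy (3.15) and Enpp3 (3.05) were the highest. The tables were normalized separately, so these differences include any scaling between tables.

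Single-cell libraries of irradiated D8 organoids gave the order in which the transcripts appeared, with 1 library per time and no test. All 61 genes were found in the rows, and levels are summed UMIs scaled to equal library totals (CPM), with exact Poisson intervals at the 95% level that cover counting error only. Genes were compared if they had at least 50 UMIs in both compared libraries together and more than 3 at 0 h. Pyy, with 0 UMIs at 0 h, was left out. The sum can let a gene in through its later library, which favours higher ratios. Pdlim4 (5 UMIs at 0 h and 52 at 24 h) and Klc3 (14 and 94 UMIs) entered so at 24 h. The same filter was set for all genes. At 6 h, 23 of the 54 members that passed had a CPM at least 1.5 times that at 0 h, against 6.74% of all genes. At 15 h there were 48 of 57 (11.3% of all genes) and at 24 h 54 of 59 (18.1% of all genes). Median ratios over the genes were 1.34, 2.16 and 2.79, and over all genes 1.02, 1.02 and 1.04. The CPM was highest at 24 h for 44 of the 61 genes and at 15 h for 17. Marker sums moved over the same libraries. From 0 to 24 h, regenerative markers, with Krt18 among them, went from 1844 to 7592 CPM, Paneth markers from 2048 to 5189 CPM, enteroendocrine markers, with Pyy among them, from 48.5 to 217 CPM and proliferation markers from 2022 to 1194 CPM, and their part in the members' values was not tested.

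Paqr7 was among the earliest, at 2.29 CPM (interval 1.76 to 2.94) at 0 h, 22.9 CPM (21.3 to 24.6) at 6 h, 25.7 CPM at 15 h and 24.1 CPM at 24 h, so its level at 6 h was close to its later ones. Fcgrt was at 11.5, 70.4, 125 and 143 CPM at 0, 6, 15 and 24 h. Hsd17b2 was at 3.60, 20.7, 27.3 and 20.4 CPM and Hsd11b2 at 2.63, 15.1, 20.2 and 10.9 CPM. Like them, Ada (25.7, 58.0, 226 and 122 CPM) had its highest level at 15 h. Ctrb1 was higher at each time, at 79.7, 165, 539 and 931 CPM.

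Other genes were late. Pyy had 0 UMIs at 0 h (interval 0 to 0.135 CPM) and was at 0.278 CPM (0.127 to 0.527) at 6 h, 3.38 CPM (2.72 to 4.16) at 15 h and 28.2 CPM (26.3 to 30.1) at 24 h. Ddah2 was at 1.499, 2.04, 6.31 and 12.7 CPM, and Sfxn3 at 2.74, 2.37, 7.00 and 11.5 CPM. For these 3 genes the intervals at 0 and 6 h overlapped. Areg was lower at 6 h (154 CPM, 150 to 159) than at 0 h (255 CPM, 249 to 261), and reached 399 CPM at 24 h. Areg, Dusp4 and Junb were the 3 genes whose interval at 6 h lay below that at 0 h. Tgfb1 was sparse, at 0.638, 0.645, 1.32 and 2.08 CPM. Apoa1, called lower in the non-irradiated bulk libraries, was at 805, 1813, 2452 and 2468 CPM in these irradiated organoids.

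**Figure D4:**
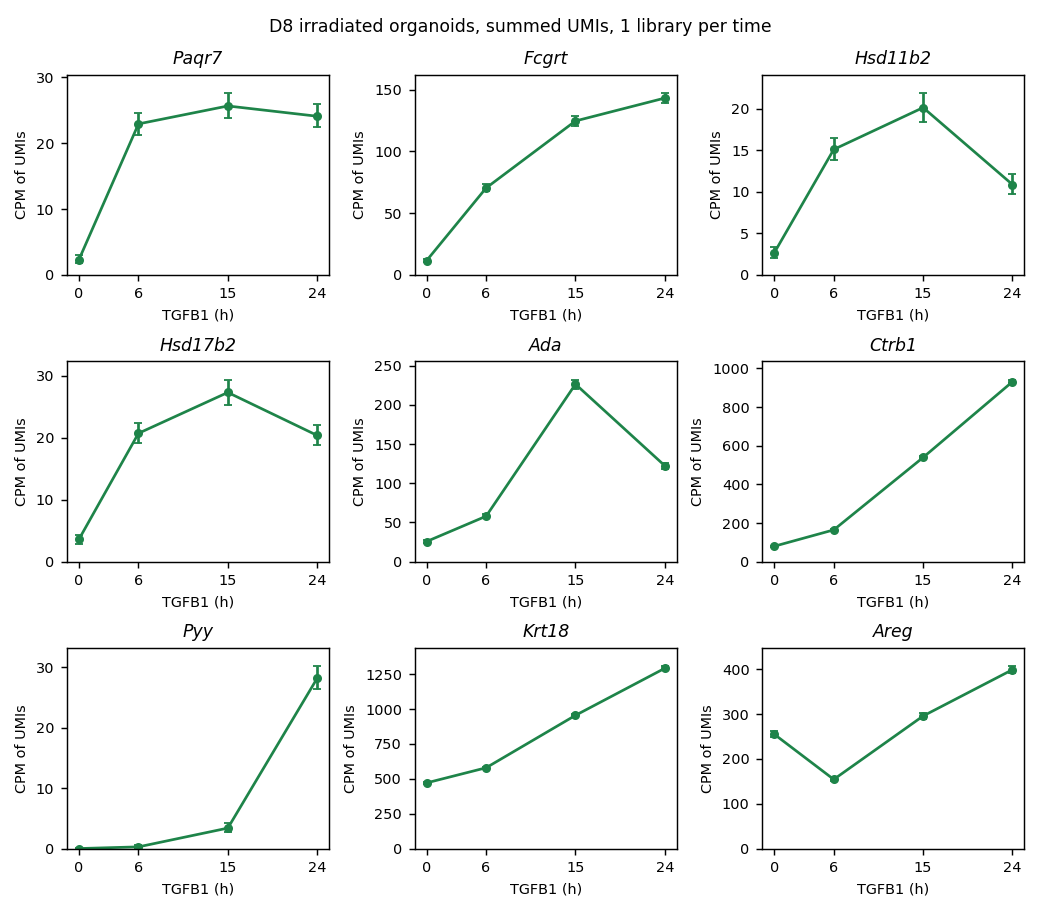
CPM of summed UMIs (y axis, from 0) at 0, 6, 15 and 24 h of TGFB1 (x axis) for 9 genes in irradiated D8 organoids, 1 library per time, with 95% exact Poisson intervals for counting error. Paqr7 is near its highest level at 6 h, Hsd11b2, Hsd17b2 and Ada are highest at 15 h, Pyy appears at 15 and 24 h, and Areg is lowest at 6 h.

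The genes did not share 1 cell cluster. The 12323 kept cells of the 4 libraries were clustered without the 61 genes among the variable genes. A cluster took the name of a fixed list only if the list's median fold there exceeded that of every other list and reached 2. At least 1 gene of the list also had to be among the 10 leading genes, and no other list could have more genes among those 10. Of 60 genes with at least 50 UMIs, 28 had their highest CPM in the regenerative-like cluster of 766 cells, which was led by Anxa8, Ly6d, Cwh43, Msln and Anxa1. The same held for 11.0% of 15409 genes with as many UMIs, a background that includes genes the clustering used. Ada was at 968 CPM in this cluster and at 24.2 CPM in the other cells, Slc28a2 at 113 and 11.3 CPM, and Krt18 at 2544 and 664 CPM. Pyy was at 78.8 and 1.61 CPM, and within the regenerative-like cluster it was at 0, 0, 30.4 and 142 CPM at 0, 6, 15 and 24 h. In an unnamed cluster of 311 cells led by Afp, Tff3, Hepacam2, Reg4 and Chga, which has endocrine and goblet genes, Pyy had 4 UMIs (1.75 CPM). With a finer clustering, 16 genes had their highest CPM in the cluster named regenerative-like, which then held 464 cells (7.09% of all genes). Pyy and Krt18 were among the 16, whereas Ada and Slc28a2 were highest in another cluster, of 423 cells, in which Ada led.

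The stem-like cluster, led by Fstl1, Cym and Gkn3 and with Lgr5 among its leading genes, held the highest level of 8 genes (7.96% of all genes). Mia was at 58.8 CPM there and 9.53 CPM in the other cells, Ddah2 at 18.9 and 4.01 CPM and Cyba at 264 and 109 CPM. With the finer clustering no cluster took the name stem-like. Ddah2 was then highest in a tuft-like cluster of 27 cells (44.8 CPM), Cyba in the regenerative-like one (304 CPM) and Mia in an unnamed one (68.0 CPM). Ctrb1 (1482 and 280 CPM) and Paqr7 (47.4 and 14.9 CPM) were highest in an unnamed cluster of 1348 cells. It was led by Gm25245, Gm24596, Gm25173 and Ctrb1 itself, with Reg3b and Reg3g also among its leading genes. Only 41 of its cells came from the 0 h library and 546 from the 24 h library, so cell type and TGFB1 time cannot be told apart there. At 0 h, 1735 of the 2179 Ctrb1 UMIs lay in an enterocyte-like cluster of 2739 cells. Apoa1 (6585 and 1860 CPM) was highest in a cluster of 171 cells led by Rps12l1, Rps12-ps3 and other ribosomal protein copies. This cluster took the name enterocyte-like, with a median fold of 2.92 and 1 gene of the list, Cyp3a11, among its 10 leading genes. Apoa1 is itself in the enterocyte list. Oasl2, Ifit1, Irf7, Gsdmd and Fcgrt were highest in an unnamed cluster of 461 cells, of which 377 came from the 24 h library and which had the short RNAs 7SK, Rmrp and n-R5s100 among its leading genes. Its cells had a median of 5463 UMIs, and the part of RNA quality in this was not tested. The finer clustering parted these genes. Oasl2 and Ifit1 were then highest in the cluster of 423 cells in which Ada led, and Irf7, Gsdmd and Fcgrt each in a different unnamed cluster. Cells of 1 library are not replicates, so these are descriptions.

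In crypt cells of irradiated mice the genes went in both directions. Of the 61 genes, 58 passed the filter on low counts, of which 26 were called higher 56 h after 12 Gy and 13 lower (edgeR quasi-likelihood test on summed UMIs, Benjamini-Hochberg adjusted p under 0.05). Over the 16398 genes tested, 17.2% were called higher and 16.7% lower. The comparison has 1 non-irradiated library, which is assumed to vary like the 2 irradiated ones. The crypts of irradiated mice had passed a coarser strainer than those of the littermates, and strainer and irradiation cannot be told apart.

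Of the 6 interferon and antigen presentation genes 4 were called higher, Psmb8 was called lower and Tapbp was not called (-0.30). Of the 11 genes of defence and immunity 8 were called higher, Fcgrt was called lower, and Saa3 (0.25) and AI747448 (-0.46) were not called. Lcn2 had 2 UMIs (0.0776 CPM) in the non-irradiated library and 4.15 and 2.27 CPM in the irradiated ones, a ratio of 42.0 with an exact 95% counting interval of 11.3 to 352. Ifit1 rose from 0.388 CPM to 8.74 and 20.8 CPM (log2 fold change 5.04, adjusted p = 1.9e-05). Isg15 rose from 2.60 CPM to 10.9 and 40.7 CPM (log2 fold change 3.12), Oasl2 from 3.03 CPM to 9.68 and 17.2 CPM (1.96) and Irf7 from 5.63 CPM to 9.39 and 21.7 CPM (1.28). In each of these 4 interferon genes irradiated replicate 2 was the higher. Without it, differences of log2 CPM were 4.02 for Ifit1, 1.87 for Isg15 and 0.57 for Irf7. Values with a library left out are such differences, taken after adding a small count, which pulls low counts together. They are another measure than the edgeR fold changes, and the part of the measure in the drops was not tested. With DESeq2, 17 of the genes were called higher and 11 lower, and Isg15, Irf7, Ada and Trim15, called higher by edgeR, were not called. Areg rose from 22.2 CPM to 140 and 258 CPM (log2 fold change 2.98, edgeR adjusted p = 7.3e-06), and Krt18 from 243 CPM to 1253 and 1335 CPM (2.24, adjusted p = 3.6e-07). Duoxa2 rose from 3.92 CPM to 31.2 and 23.3 CPM (2.62). Clca6 rose from 0.155 CPM, which is 4 UMIs, to 2.18 and 5.83 CPM (4.44). Its log2 CPM difference was 3.02 without irradiated replicate 2. Trim15, Sfxn3 and Enpp3 were also called higher (1.11, 2.65 and 1.80), and without that library their log2 CPM differences were 0.51, 1.77 and 1.06. The Trim15 call was also lost with edgeR's RLE size factors and with at most 10% mitochondrial UMIs. Tgfb1 rose from 6.60 CPM to 19.2 and 20.1 CPM (log2 fold change 1.39, adjusted p = 0.00019).

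All 3 tested steroid enzyme genes fell, as did Acat1 and Blvrb. Hsd3b3 fell from 13.3 CPM to 0.218 and 1.13 CPM (log2 fold change -4.50, edgeR adjusted p = 5.7e-06). With 1 irradiated library left out, its difference of log2 CPM was -3.61 or -5.52. Hsd17b2 fell from 26.0 CPM to 5.10 and 5.10 CPM (-2.52), Hsd11b2 from 15.7 CPM to 3.42 and 3.56 CPM (-2.34) and Blvrb from 64.3 CPM to 12.4 and 15.6 CPM (-2.38). Paqr7 (-2.39), Fcgrt (-2.12), Bmf (-2.07), Mia (-1.95), Acat1 (-1.81), Psmb8 (-1.43), Tspo (-0.72) and Gadd45a (-0.48) were also called lower, and Gadd45a was not called with DESeq2. Fcgrt and Paqr7, which had the early TGFB1 course in organoids, were at 38.3 CPM against 8.74 and 11.3 CPM, and at 9.90 CPM against 1.53 and 2.75 CPM. Pyy had 16 UMIs in the non-irradiated and 0 in both irradiated libraries and was not tested, nor were Ctrb1 and Cyp2w1, with at most 3 UMIs in any library.

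Marker sums moved with this comparison. Enterocyte markers summed to 5272 CPM in the non-irradiated library and to 1296 and 3402 CPM in the irradiated ones, and stem markers to 2535 CPM against 1956 and 1469 CPM. Regenerative markers, with Krt18 among them, summed to 1292 CPM against 6012 and 7460 CPM. Immune markers summed to 15.8 CPM against 22.3 and 17.3 CPM. The part of these shifts in the members' values was not tested.

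**Figure D5:**
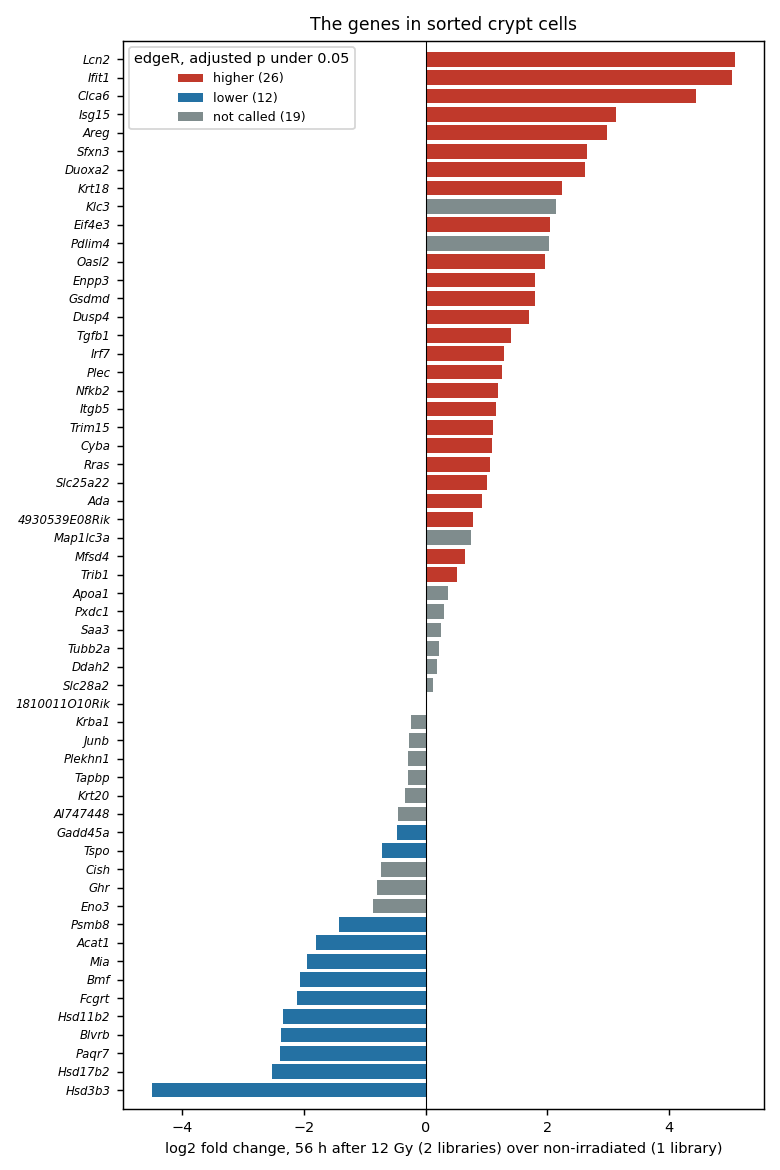
Log2 fold change of 57 of the 58 tested genes in sorted Ki67-RFP crypt cells, 2 libraries 56 h after 12 Gy over 1 non-irradiated library, coloured by the edgeR call (26 higher in red, 12 lower in blue, 19 not called in grey). Lcn2, Ifit1 and Clca6 are at the upper end and Hsd3b3, Hsd17b2, Paqr7, Blvrb and Hsd11b2 at the lower end.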

How the data were processed

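Bulk RNA-seq was deposited by the authors as FPKM values in 3 tables normalized separately; TopHat2 2.1.0, Cuffnorm 2.2.1, STAR 2.7.10a and other tools are named in the submitters' processing notes, with no role given. Single-cell data were deposited as estimated counts of UMIs, some fractional, which were rounded after summing for edgeR. The absolute depth behind FPKM is unknown. A total of 0 expression columns were left unmapped. ATAC-seq peak lists were not used here, since their build could not be matched to the gene positions given.

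Differences were taken on log2(mean + 1). Members and lists were chosen with earlier results of these data known. In non-irradiated organoids limma 3.58.1 (trend, robust) was run on log2(FPKM + 1) with a pseudocount of 1 for genes averaging 1 FPKM or more over the 6 libraries. Cells under 500 UMIs or 250 genes, or above 20% mitochondrial UMIs, were dropped, and doublets were neither called nor removed. Crypt sums were tested with edgeR 4.0.16. Clusters came from scanpy 1.11.5 (2000 variable genes, 30 components, 15 neighbours, Leiden resolution 0.6); the limits for naming them were set after seeing the data. Both tests were also run on simulated data with known changes in far fewer genes than were called here. The outcome is not given, so it carries no weight for the calls. The crypt simulation gave every library the same spread, so it cannot check what is assumed of the lone non-irradiated library. Symbols were matched to newer names through RefSeq synonyms. Genes named are the largest by D7 difference, level, D11 difference and each test, the members of families, and those at the thresholds. Alternatives varied the pseudocount, filters, scaling, tool, replicate set and clustering. One member is counted in every total but is not reported here. The labels do not say whether replicate numbers pair the 6 non-irradiated bulk libraries, and the weak correlations given below cannot settle it. The main fit did not pair them. Pairing was not checked in the other bulk libraries, where no test was run.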

Additional observations from a re-analysis of the deposited data

Results flagged for a closer look

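Genes whose TGFB1 and vehicle libraries were fully separated in opposite directions in 2 conditions were picked out. In all of them every TGFB1 library was above every vehicle library in irradiated D7 organoids, which the rule favours. In non-irradiated D7 organoids every TGFB1 library was below every vehicle library for 4 genes, with differences of log2(mean + 1) of -0.67 for Apoa1, -0.44 for Enpp3, -0.35 for Cish and -0.23 for 4930539E08Rik. The difference between conditions was not tested, since the rule chose on the irradiated values.

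At D11 the same held for 23 genes, and 34.0% of all genes had D11 libraries separated in this way. Among those given here, the differences were -1.83 for 1810011O10Rik, -1.61 for Ada, -1.58 for 4930539E08Rik, -1.23 for Cyp2w1, -1.15 for Rras, -1.06 for Cish, -1.03 for Gadd45a, -1.02 for Mfsd4 and -1.02 for Psmb8. They were -0.99 for AI747448, -0.97 for Ctrb1, -0.95 for Hsd11b2, -0.95 for Blvrb, -0.93 for Hsd17b2, -0.74 for Irf7, -0.62 for Slc28a2, -0.56 for Plekhn1, -0.49 for Krt20, -0.42 for Itgb5, -0.32 for Bmf, -0.25 for Acat1 and -0.23 for Oasl2. Again the difference between days was not tested. Cish and 4930539E08Rik are in both groups of genes.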

How the results depend on the processing

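Over the 12 fits that left out 1 bulk library each, 56 to 67 genes met the rule, and 58 to 75 did under the other settings tried. In non-irradiated organoids the members' calls and directions held under every alternative for 56 of 59 genes. Ifit1 and Hsd17b2 were no longer called in a fit of all 18 libraries. Saa3, not called, was at -0.25 to 0.11 when 1 TGFB1 library was left out, and 0.11 without TGFB1 replicate 3. With a 2-fold limit 0 members were called lower, and 625 and 331 of all genes were called higher and lower. The replicate block left 54 members called higher and 4 lower, and changed no member's call; same-numbered libraries had correlations of -0.03, 0.16 and 0.05.

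With a pseudocount of 0.1, both levels moved by a log2 unit in 14 genes and neither in 2, and with median-ratio scaling neither in 2; the cause was not tested. In crypt cells DESeq2 called 17 members higher, and 1555 and 1473 of all genes higher and lower. The calls and directions held for 42 of 58 members, where a setting that gave a member no adjusted p was not counted as a change. 1810011O10Rik, not called, was at -0.061 without the filter, -0.026 with at most 10% mitochondrial UMIs and -0.016 with DESeq2. Among members with a DESeq2 adjusted p, the calls lost were those of Ada, Itgb5, Trim15, Rras, Mfsd4, Isg15, 4930539E08Rik, Irf7, Trib1 and Gadd45a. DESeq2 called 11 members lower against 13 with edgeR, so this list does not hold every lower call that was lost. At Leiden resolution 1.0, 16 genes were highest in the regenerative-like cluster. Leaving out an irradiated crypt library gave log2 CPM differences with no test, another measure than the edgeR fold changes. The 3 alternatives planned for ATAC-seq peaks were not run. The time course has 1 library per time, and the crypt comparison 1 non-irradiated library, which limits both.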
